A study of Homo sapiens with 2 samples.

Results

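The regions described here are the binding sites called for the retinoblastoma protein Rb on the arms of human chromosome 16 in LNCaP and VCaP prostate cancer cells. Members were all rows of both deposited peak lists on chromosome 16 of the hg19 build, with the summit below position 35300000 for the short arm (16p) and above 38300000 for the long arm (16q). This gave 828 peaks in LNCaP, 427 on 16p and 401 on 16q, and 184 peaks in VCaP, 105 on 16p and 79 on 16q. No peak of either list lay between the arms, and the 1012 members were part of 31417 rows in all. Rb binding had been mapped by chromatin immunoprecipitation and sequencing (ChIP-seq) with a mouse monoclonal antibody, with 1 library per cell line. LNCaP is a line from a lymph node metastasis and VCaP a line from a vertebral metastasis, and both express the androgen receptor. Cells of both lines, at passage 10 to 15, had spent 3 days in 5% charcoal-stripped serum, which is poor in steroids, followed by 4 h with 10 nM of the androgen dihydrotestosterone (DHT). No arm without DHT was analysed here, so that the lists compare 1 LNCaP library with 1 VCaP library under the same treatment, and nothing is known of the spread between cultures.

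Rb holds cells before S phase by binding E2F transcription factors at the promoters of cell cycle genes and recruiting corepressors, and phosphorylation by cyclin-dependent kinases releases it. Loss of Rb function is a known feature of advanced, hormone-resistant prostate cancer. Chromosome 16 is gene-rich. Its short arm carries many segmental duplications, and its long arm begins with a large block of satellite heterochromatin next to the centromere. The files pair no peak with a gene, and the gene annotation and promoter sequences given for this work follow another build. Peaks are therefore named by position and no sequence is shown.

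The LNCaP library held 3671482 tags after filtering and the VCaP library 8691938. Summit pileup, the number of extended tags over the summit, is given here as RPM, tags per 1000000 tags of its library, so that a single tag weighs more in LNCaP than in VCaP. Fold enrichment is the authors' ratio of pileup to the local background of the same library, without a control library. That background was computed back from the ratio as tags in the 10 kb window around the peak, which include the tags of the peak itself, and it cannot fall below the genome mean of 3.58 tags per 1000000 in either library.

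Chromosome 16 had more Rb peaks in LNCaP than in VCaP on both arms, and by a wider margin than the other chromosomes. LNCaP had 4.07 peaks for each VCaP peak on 16p (95% counting interval 3.28 to 5.08) and 5.08 on 16q (3.98 to 6.55). On chromosomes 1 to 22 and X other than 16, 21127 LNCaP and 9209 VCaP peaks gave a ratio of 2.29 (2.24 to 2.35). The chromosome 16 ratio of 4.50 was the highest of 23 chromosomes, with 3.70 on chromosome X next and 1.49 on chromosome 21 the lowest. On the gene-rich chromosomes 17 and 19 the ratios were 2.06 and 1.84. Among peaks with a fold of at least 10, LNCaP had 24 and VCaP 5 on 16p, a ratio of 4.8 that was below the 5.58 of other chromosomes, and LNCaP had 29 and VCaP 1 on 16q. With 1 library per line these differences have no test, and the intervals cover counting error only.

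Set against gene content, LNCaP was near other gene-rich chromosomes and VCaP was below them. Chromosome 16 carries 854 protein-coding genes in the RefSeq table of GRCh38.p14. Per 100 of them there were 97.0 LNCaP peaks, against 104.5 on chromosome 17 and 79.9 on chromosome 19, and the chromosome 16 value ranked 19 of 23. VCaP had 21.5 peaks per 100 genes on chromosome 16, 50.8 on chromosome 17 and 43.4 on chromosome 19, and the chromosome 16 value ranked 22 of 23. The short arm was the more densely covered in both lines: between the first and the last summit LNCaP had 12.3 peaks per Mb on 16p and 9.16 on 16q, and VCaP had 3.02 on 16p and 1.81 on 16q. The long arm held 48.4% of the chromosome 16 peaks in LNCaP (44.98 to 51.9) and 42.9% in VCaP (35.7 to 50.4), intervals that overlap.

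**Figure D1:**
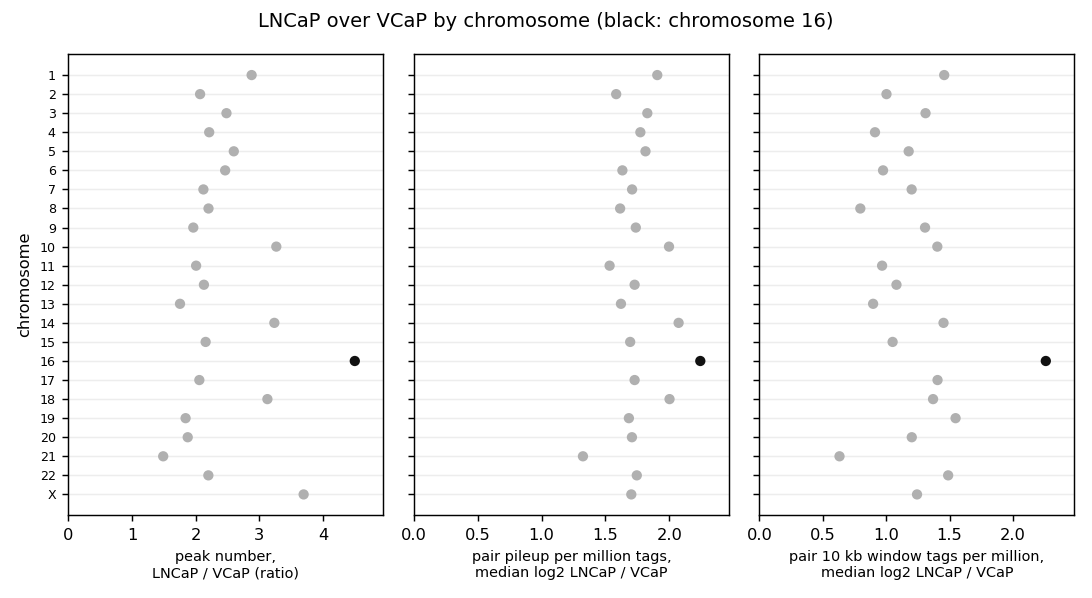
Each dot is 1 chromosome, and chromosome 16 is black. The panels show, from left to right, the ratio of LNCaP to VCaP peak numbers, the median log2 ratio of summit pileup in RPM over overlapping pairs, and the same for tags of the 10 kb window. Chromosome 16 has the highest value in each panel, at 4.50, 2.24 and 2.26.

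In 5 Mb bins, counted from the end of the short arm, the excess of LNCaP peaks ran along nearly the whole chromosome. Of the 13 bins with at least 5 VCaP peaks, 9 had at least 4 LNCaP peaks per VCaP peak, against 12.0% of 507 such bins over the genome. The median ratio of these 13 bins was 4.52, against 2.30 for 494 bins of the other chromosomes, and 12 of the 13 lay above that median of the others. The exception was the bin from 45 to 50 Mb, with 25 LNCaP and 12 VCaP peaks and a ratio of 2.08. Nearly all of these VCaP peaks lay in a single cluster near the centromere, described further on. Rb binding and a high background cannot be told apart there.

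The end of 16p was the densest stretch in both lines. From 0 to 5 Mb LNCaP had 154 peaks, the highest count of any 5 Mb bin on any chromosome, and VCaP had 44. The bin from 5 to 10 Mb was sparse, with 16 LNCaP peaks and 1 VCaP peak. LNCaP then had 36, 30, 54 and 42 peaks in the 4 bins between 10 and 30 Mb, where VCaP had 5, 9, 12 and 13. The last stretch of the arm, from 30 to 35 Mb, held 95 LNCaP and 21 VCaP peaks.

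On 16q the count was highest from 65 to 70 Mb, with 78 LNCaP and 17 VCaP peaks. The 3 bins from 50 Mb up to it had 25, 56 and 1 LNCaP peaks, against 5, 14 and 0 in VCaP. The 3 bins that followed, up to 85 Mb, had 60, 36 and 43 LNCaP peaks, against 13, 6 and 7 in VCaP. From 85 to 90 Mb LNCaP had 71 peaks and VCaP 4.

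**Figure D2:**
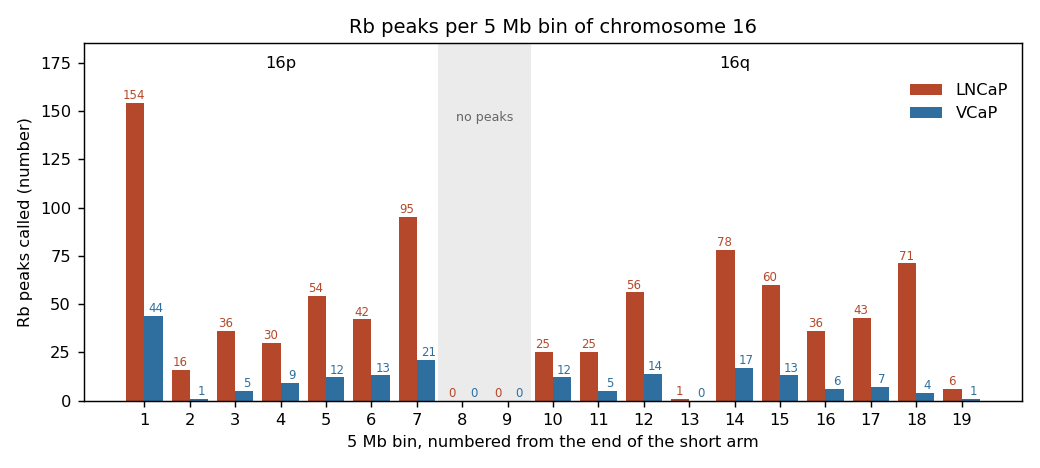
Bars give the number of called Rb peaks in each 5 Mb bin, LNCaP left and VCaP right. LNCaP has 154 peaks and VCaP 44 in bin 1, bins 8 and 9 around the centromere hold no peak, and bin 18 has 71 LNCaP and 4 VCaP peaks.

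Long stretches without a peak of either list were few. The longest, 11.6 Mb, ran from the summit at 34825137 across the centromere to the one at 46386377. On 16q the intervals from 58898884 to 62069516 and from there to 65155380 were empty over 3.17 and 3.09 Mb. Median distances between neighbouring summits were 32.1 kb on 16p and 44.8 kb on 16q in LNCaP, and 100.02 kb and 195.7 kb in VCaP. On 16p 137 LNCaP peaks and 16 VCaP peaks had a neighbour of their own list within 10 kb, and on 16q 124 and 10.

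Peaks of chromosome 16 were higher in LNCaP than in VCaP in RPM, while the medians of their deposited fold enrichment differed little. On 16p the LNCaP median was 4.36 RPM, with quartiles of 2.996 and 5.99, and the VCaP median 1.27, with quartiles of 1.04 and 1.73. On 16q the LNCaP median was 3.81, with quartiles of 2.72 and 5.45, and the VCaP median again 1.27, with quartiles of 1.04 and 1.78. On the other chromosomes the medians were 3.54 in LNCaP and 1.496 in VCaP, so that chromosome 16 stood above the rest in LNCaP and below it in VCaP. On the gene-rich chromosomes 17 and 19 the LNCaP medians were as high or higher, at 4.09 and 4.36, against 4.09 on chromosome 16, while those of VCaP were 1.61 and 1.496, against 1.27.

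The median fold enrichment was 5.79 in LNCaP and 5.96 in VCaP on 16p, and 5.98 in LNCaP and 5.81 in VCaP on 16q. Over the whole chromosome both medians came to 5.88, against 6.01 in LNCaP and 5.49 in VCaP elsewhere. By chromosome, this median ranked 20 of 23 in LNCaP and 1 of 23 in VCaP. A fold of at least 10 was reached by 53 LNCaP peaks and 6 VCaP peaks, or 6.40% and 3.26% of each list's chromosome 16 peaks. Over the genome 8.02% of LNCaP and 3.32% of VCaP peaks reached it. LNCaP peaks were longer, with medians of 424 bp on 16p and 428 bp on 16q, against 278 and 315 bp in VCaP.

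Compared with other chromosomes, the windows around chromosome 16 peaks held more tags in LNCaP and fewer in VCaP. The median 10 kb window of chromosome 16 peaks held 18.8 tags per 1000000 in LNCaP and 5.23 in VCaP, against 13.6 in LNCaP and 7.82 in VCaP on other chromosomes. By chromosome, the VCaP median ranked 23 of 23 and the LNCaP median 3 of 23. The part of local tag density in the peak numbers was not tested.

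The 151 overlapping pairs of chromosome 16 measure the same sites in both libraries. LNCaP had the higher pileup in RPM in 150 of them, a share near the 98.7% of all pairs of the genome. The median log2 ratio of LNCaP over VCaP was 2.24 (quartiles 1.92 and 2.57), a ratio of 4.73, and it was 2.24 on each arm. Over 6537 pairs of the other chromosomes the median was 1.74 (1.32 and 2.12). Intervals over pairs were 2.18 to 2.35 on chromosome 16 and 1.73 to 1.76 elsewhere. They take pairs as independent and are no test, since all pairs come from 1 library per line.

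A pileup in RPM at least 4 times as high in LNCaP was found in 105 of the 151 pairs, or 69.5% (61.5 to 76.8), against 33.0% of all pairs of the genome. The count was 64 of 88 pairs on 16p and 41 of 63 on 16q. On chromosomes 17 and 19 the shares were 33.03% and 31.5%.

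In pairs of 16p the LNCaP over VCaP ratio of deposited fold was lower than over the other chromosomes together. In pairs of 16q it was similar. By arm its median log2 was 0.22 on 16p (interval over pairs 0.04 to 0.37) and 0.40 on 16q (0.23 to 0.56). On other chromosomes the interval over pairs was 0.39 to 0.42. A low ratio was not particular to 16p. On the gene-rich chromosomes 17 and 19 its median log2 was 0.27 and 0.16, and LNCaP had the higher fold in 72.9% and 64.5% of pairs. The median log2 ratio of fold was 0.31 on chromosome 16 (quartiles -0.02 and 0.64) and 0.40 elsewhere (0.09 and 0.69). LNCaP had the higher fold in 109 of 151 pairs, or 72.2% (64.3 to 79.2), against 80.8% of all pairs. By arm these were 57 of 88 pairs on 16p (64.8%, 53.9 to 74.7) and 52 of 63 on 16q (82.5%, 70.9 to 90.9). At the end of 16p, from 0 to 5 Mb, LNCaP led in 21 of 38 pairs. The deposited fold adds 1 to pileup and to background, which lowers it most where the background is low. The median window of chromosome 16 peaks held 69.0 tags in LNCaP and 45.5 in VCaP, and that of other chromosomes 50 and 68. How many pairs would keep their order without that 1 was not tested.

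On chromosome 16 window tags of the pairs differed about as much as their pileup, and elsewhere less than their pileup. The median log2 ratio of window tags was 2.35 on 16p, 2.02 on 16q and 1.22 on other chromosomes. That of pileup was 2.24 on each arm and 1.74 on other chromosomes. In 22 of the 151 pairs the VCaP window was at the genome mean, the lowest value the file can show, so that for these pairs the ratio is a lower limit. Summits of the pairs were a median of 71 bp apart, and 132 of 151 lay within 200 bp.

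**Figure D3:**
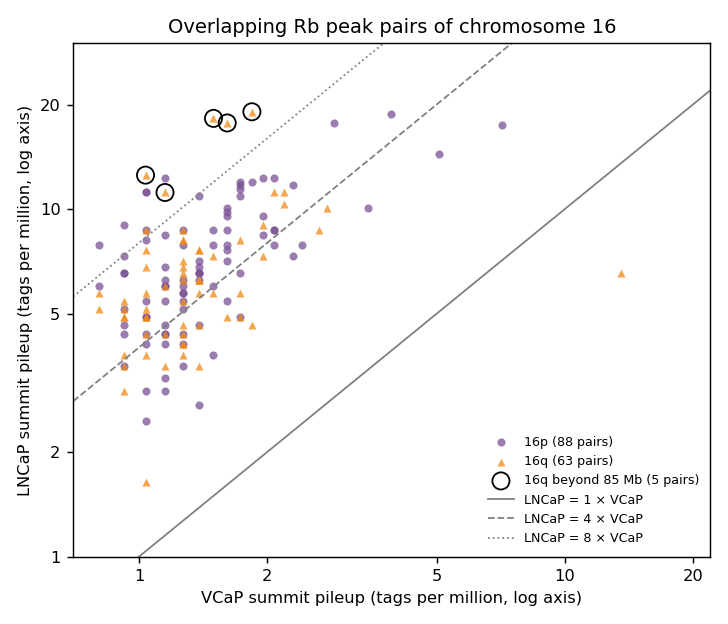
Each point is a pair of overlapping peaks on chromosome 16, with the VCaP summit pileup in RPM on the x axis and that of LNCaP on the y axis, both on log axes. Lines mark equal, 4-fold and 8-fold pileup. All but 1 of the 151 points lie above the line of equality, and the 5 circled pairs beyond 85 Mb on 16q lie above the 8-fold line.

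Most VCaP peaks of the chromosome had an LNCaP counterpart, and most LNCaP peaks had none in VCaP. In VCaP 151 of 184 peaks were overlapped, or 82.1% (75.7 to 87.3), against 71.2% of all VCaP peaks. In LNCaP 150 of 828 were overlapped, or 18.1% (15.5 to 20.9), against 30.2% of all LNCaP peaks. The VCaP share was the highest and the LNCaP share the lowest of 23 chromosomes. Both shares are tied to the peak numbers, since 184 VCaP peaks can overlap only a small part of 828 LNCaP peaks. By arm the LNCaP shares were 20.1% on 16p (16.4 to 24.3) and 15.96% on 16q (12.5 to 19.9), and the VCaP shares 83.8% (75.3 to 90.3) and 79.7% (69.2 to 87.96).

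The LNCaP share was also below that of other chromosomes at matched LNCaP pileup. Such matching leaves the smaller number of VCaP peaks per LNCaP peak in place, so these shares are not independent of the peak numbers. Of the 126 LNCaP peaks on chromosome 16 whose summits had 25 tags or more, 66 were overlapped in VCaP, or 52.4% (43.3 to 61.3), against 78.4% (76.8 to 79.9) of 2766 elsewhere. At 15 to 24 tags, 21.4% (16.99 to 26.4) were overlapped on chromosome 16 and 45.4% (44.2 to 46.7) elsewhere. At 10 to 14 tags it was 6.88% (3.90 to 11.1) against 22.7% (21.5 to 23.9), and at 4 to 9 tags 1.17% (0.142 to 4.16) against 5.07% (4.58 to 5.61). On the VCaP side, 41 of 49 chromosome 16 peaks of 4 to 9 tags were overlapped, or 83.7%, against 41.7% elsewhere, while of the 18 with 25 tags or more 6 were, or 33.3%, against 82.5%. Of these 18 peaks, 5 of 7 on 16p were overlapped (71.4%) and 1 of 11 on 16q, where all 11 belong to a single cluster near the centromere that is described further on. The 4 ranges of pileup were set after the lists had been seen.

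The LNCaP list held 678 peaks of chromosome 16 without a VCaP partner. Their pileup ran from 1.09 to 12.8 RPM with a median of 3.81. Shared LNCaP peaks were higher, with a median of 6.26 RPM. They also covered more sequence, at a median of 579.5 bp, where those without a partner had 386 bp.

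**Figure D4:**
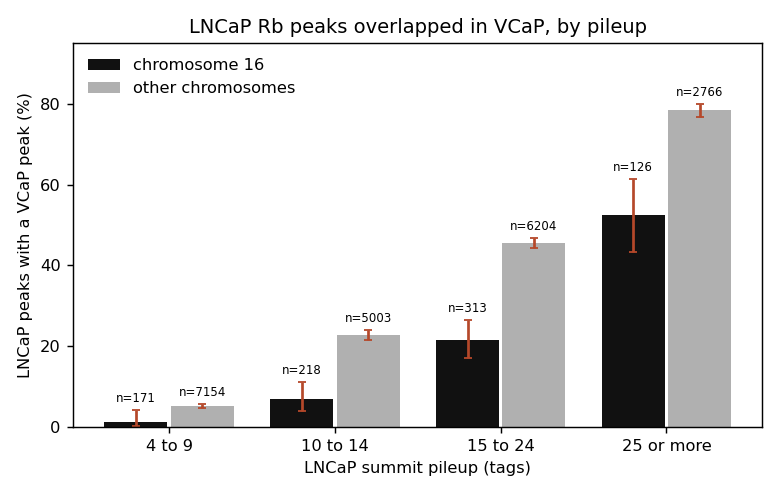
Bars give the percentage of LNCaP peaks overlapped by a VCaP peak, by LNCaP summit pileup in tags, with chromosome 16 in black on the left and other chromosomes in grey. Error bars are exact 95% binomial intervals and n is the number of LNCaP peaks. Chromosome 16 is lower in each class, with 52.4% against 78.4% at 25 tags or more.

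By fold enrichment, the leading site of chromosome 16 was the same in both lines. It lay on 16p at chr16:11439098-11439627 in LNCaP, with a fold enrichment of 18.7 and 18.8 RPM at the summit, and at chr16:11439100-11439511 in VCaP, with 14.3 and 3.91. By pileup, other peaks led, at chr16:88869818-88870399 in LNCaP, with 19.1 RPM, and at chr16:46391832-46392212 in VCaP, with 17.7 RPM. By fold, the site on 16p ranked 34 of all LNCaP peaks and 67 of all VCaP peaks. A site at chr16:30064115-30064674 was next among shared sites of 16p, with folds of 15.3 in LNCaP and 13.2 in VCaP and pileups of 17.7 and 2.88 RPM.

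The second highest VCaP peak of the chromosome by fold, at chr16:29984586-29985191, had the higher fold in VCaP. Its fold was 11.4 in LNCaP and 13.4 in VCaP, although the pileup was 14.4 RPM in LNCaP and 5.06 in VCaP. The pairs that followed on 16p lay at chr16:28565119-28565558, with folds of 11.2 in LNCaP and 7.37 in VCaP, and at chr16:1728016-1728525, with 10.8 and 7.93. VCaP peaks at chr16:699259-699599 and chr16:19897556-19897896, with folds of 10.4 each, completed its 5 highest of 16p, and both were overlapped in LNCaP. The 5 highest LNCaP peaks of 16p by fold included other sites, at chr16:23652404-23653013 and chr16:23521448-23521957. These reached folds of 12.1 each and were overlapped in VCaP.

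On 16q a site at chr16:75656977-75657483 ranked 6 of chromosome 16 in each list, with folds of 14.1 in LNCaP and 10.2 in VCaP and 10.1 and 2.76 RPM. The site at chr16:74330384-74330913 had folds of 14.6 in LNCaP and 9.31 in VCaP. That at chr16:75498420-75498937 had 11.9 in LNCaP and 8.51 in VCaP. A VCaP peak at chr16:58426189-58426608, with a fold of 9.84, was among the 5 highest VCaP peaks of 16q and was overlapped in LNCaP. Of the 20 highest peaks of the chromosome by fold, 15 in LNCaP and 19 in VCaP had a counterpart, and 7 pairs were among the 20 highest of both.

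Some LNCaP peaks without a VCaP partner were among the highest of the chromosome. On 16p they were chr16:32199299-32199755, with a fold of 17.1, chr16:31884994-31885442, with 11.3, and chr16:28303315-28303970, with 11.2. On 16q they were chr16:56458855-56459701, with 13.2, chr16:50402501-50403020, with 12.8, and chr16:58270232-58270594, with 12.7. The site with the fold of 17.1 had 12.8 RPM at its summit, the highest pileup among LNCaP peaks without a partner.

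VCaP had 33 peaks without an LNCaP partner, 17 on 16p and 16 on 16q. The highest by fold on 16p were chr16:33887533-33887853, with 9.41, chr16:29874564-29874829, with 7.18, and chr16:22207063-22207308, with 6.56. On 16q they were chr16:57842024-57842272, with 6.89, chr16:46432531-46432952, with 6.25, and chr16:71006229-71006582, with 5.96.

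The last 5 Mb of 16q stood apart from the rest of the arm. LNCaP had 77 peaks beyond 85 Mb and VCaP 5, a ratio of 15.4 (6.32 to 48.8), against 299 and 62, a ratio of 4.82 (3.66 to 6.45), from 50 to 85 Mb. This stretch was singled out after its values had been seen.

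All 5 VCaP peaks beyond 85 Mb coincided with strong LNCaP peaks. At chr16:85722335-85722804 the pileup was 18.2 RPM in LNCaP against 1.496 in VCaP, or 12.2 times as high, the largest ratio of the chromosome. Next came chr16:89882704-89883503, with 12.5 in LNCaP, 1.04 in VCaP and a ratio of 12.1. The site chr16:87984552-87985187 had 17.7 in LNCaP, 1.61 in VCaP and a ratio of 10.99. The remaining sites were chr16:88869818-88870399, with 19.1 in LNCaP, 1.84 in VCaP and a ratio of 10.4, and chr16:90143700-90144180, with 11.2, 1.15 and 9.71. The 5 ratios thus lay between 9.71 and 12.2, where the median of 56 pairs from 50 to 85 Mb was 4.57.

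The deposited fold of these 5 pairs was also higher in LNCaP, at 18.03, 10.7, 14.01, 13.996 and 12.6 in that order of sites, against 8.23, 5.88, 8.82, 9.51 and 6.47 in VCaP. The 1 added to pileup and background lowers this fold most where the background is low, as in VCaP here. Whether the order of the 5 pairs holds without that 1 was not tested. Over the 5 pairs the median log2 ratio of LNCaP over VCaP was 3.46 for pileup in RPM and 3.41 for window tags. In 4 of the 5 the VCaP window was at the genome mean, so that its true local background may be lower still. The windows of the LNCaP peaks beyond 85 Mb held a median of 22.1 tags per 1000000, against 16.3 for LNCaP peaks from 50 to 85 Mb. Those of VCaP held 3.58, the lowest value possible, against 5.00. The 72 LNCaP peaks beyond 85 Mb without a partner had a median pileup of 4.36 RPM and a median fold of 5.86, against 3.27 and 5.50 for the 242 from 50 to 85 Mb. The part of local tag density in these values was not tested.

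**Figure D5:**
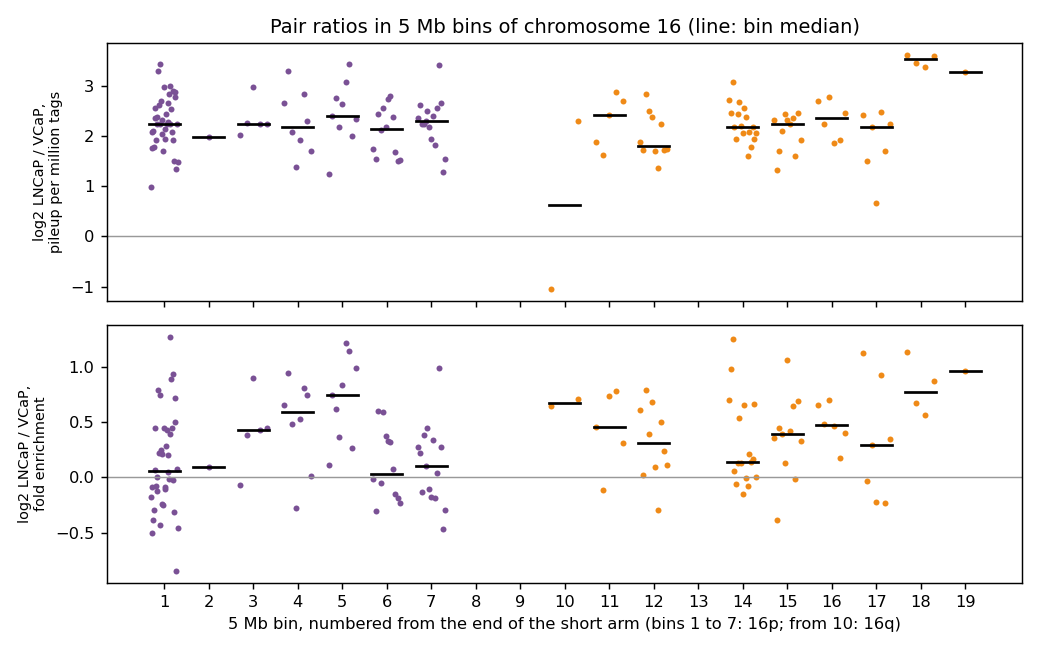
Each point is a pair of overlapping peaks, placed by 5 Mb bin, with the log2 ratio of LNCaP over VCaP for pileup in RPM above and for fold enrichment below. Black lines are bin medians, and a point's offset within its bin has no meaning. Pileup ratios beyond 85 Mb, in bins 18 and 19, lie between 3.28 and 3.61, and the lowest ratio, -1.05, is in bin 10.

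The start of 16q, also singled out after its values had been seen, showed the opposite order. Between 46386209 and 46432952, next to the long stretch without peaks, VCaP had 11 peaks and LNCaP 1. The VCaP summits had between 33 and 154 tags, or 3.797 to 17.7 RPM, among them the highest VCaP pileup of the chromosome at chr16:46391832-46392212. Their folds were between 2.62 and 6.25, because their windows held 257 to 1555 tags, where the median of chromosome 16 windows in VCaP was 45.5. By fold, the 7 lowest VCaP peaks of the chromosome, ranks 178 to 184 of 184, were all in this cluster.

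The LNCaP peak in this cluster, at chr16:46403548-46403870, had 24 tags, a pileup of 6.54 RPM and a fold of 7.03. Its VCaP partner had 118 tags, 13.6 RPM and a fold of 4.51. It was the single pair of chromosome 16 with the higher pileup in RPM in VCaP, with a ratio of 0.482. Past the cluster, the site at chr16:46654893-46655314 had the usual order, with 7.35 RPM and a fold of 13.4 in LNCaP and 1.496 and 8.23 in VCaP. Without a control library, Rb binding and a high background cannot be told apart in windows of this density.

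Near the centromere on 16p, from 30 to 35 Mb, the lists shared few sites past the first 2 Mb. From 30 to 31 Mb LNCaP had 46 peaks and VCaP 10, and all 10 of the VCaP peaks were overlapped. From 31 to 32 Mb there were 18 LNCaP and 3 VCaP peaks, and all 3 were overlapped. From 32 to 33 Mb LNCaP had 12 peaks and VCaP 1, with no overlap. From 33 to 34 Mb there were 18 LNCaP and 6 VCaP peaks, of which 2 in each list overlapped. Of these 6 VCaP peaks 4, between 33963051 and 33975602, lay in windows of 246 to 390 tags, and the windows of the 2 overlapped LNCaP peaks held 369 and 366 tags, the highest of the chromosome in LNCaP. There too Rb binding and a high background cannot be told apart. In addition, the single LNCaP and VCaP peaks beyond 34 Mb did not overlap.

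The pairs with the least excess in LNCaP, apart from that in the cluster, were small peaks. At chr16:82044807-82045047 LNCaP had 1.63 RPM and VCaP 1.04, a ratio of 1.58. At chr16:60884-61137, the first peak of the chromosome in both lists, LNCaP had 2.72 and VCaP 1.38, a ratio of 1.97. The longest LNCaP peak, of 1396 bp at chr16:47177107-47178502, and the next, of 1228 bp at chr16:22201516-22202743, had no VCaP partner. The remaining 3 of the 5 longest, of 1215, 1183 and 1124 bp, were overlapped in VCaP. The longest VCaP peak, of 1143 bp, lay in the cluster at the start of 16q, as did that of 649 bp, while those of 702, 691 and 656 bp were overlapped in LNCaP.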

How the data were processed

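Rb ChIP-seq peaks of 1 LNCaP and 1 VCaP library were analysed, each taken for its line from the cell line given in the labels. The peak caller was MACS, version 2.1.0.20140616, per the file headers; the authors ran it per library, without a control, at a q-value limit of 0.05, with 1 tag kept per position. The build hg19 comes from the submitters' processing notes; the aligner is not given in the sources used here. The deposited pileup is a coverage signal not scaled to depth. The deposited fold enrichment is a ratio of pileup plus 1 to local background plus 1, and window tags were computed back from it; they came out whole within 0.05 tags for 100% of windows above the genome mean. Significance was deposited as −log10 of p and of q, and peak length in bp.

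Overlap meant at least 1 shared bp on chromosomes 1 to 22 and X; of several LNCaP partners of a VCaP peak, that of highest fold was taken. Intervals are 95%: exact binomial for shares, the same turned into a ratio for peak numbers, and order statistics for medians. Those of shares and peak numbers cover counting error only. Those of medians reflect the spread over pairs taken as independent, and none covers the spread between cultures. With 1 library per line no test was made. Named peaks were the 5 highest by fold per arm and list, the 5 best shared pairs per arm, the 3 highest unshared per arm and list, the 3 highest and 3 lowest pileup ratios and the 5 longest per list. The members and these choices were made with earlier results of these data known. Alternatives changed the limits on fold, pileup and q, the list length, the overlap rule and the scaling of pairs. Peaks were matched to no gene or sequence, since the tables at hand follow another build; of these, the RefSeq table of GRCh38.p14 gave the number of protein-coding genes per chromosome. The code was tested on simulated data. Python 3.11.15, pandas 2.3.3 and scipy 1.17.1 were used.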

Additional observations from a re-analysis of the deposited data

How the results depend on the processing

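Among 253 values under alternative settings, over 39 results, 167 stayed near the value reported, 84 moved and 2 changed sign. Near meant within the interval of the value reported. For the bin counts and the median bin ratio, which had no interval, it meant within a fixed factor. Relative to the median of all pairs, the log2 fold ratio of chromosome 16 pairs became -0.10 and that of 16p pairs -0.19. On that scale the log2 pileup ratio of chromosome 16 pairs was 0.50, the log2 window ratio 1.02, and 0.0% of pairs were 4 times as high in LNCaP. LNCaP peaks outnumbered VCaP peaks on both arms under each setting below. With the LNCaP list shortened by rank to the length of the VCaP list, the ratios were 1.80 on chromosome 16, 1.49 on 16p and 2.22 on 16q, against 0.984 on other chromosomes, the 16q share of LNCaP peaks 52.9%, and the overlapped shares 33.5% of LNCaP and 61.4% of VCaP peaks. At 20 tags or more the ratios were 10.65, 13.3 and 8.62, against 3.24 elsewhere, chromosome 16 held 4.596% of LNCaP and 1.45% of VCaP peaks, 16q held 56.5% of VCaP peaks, and 4.49% of LNCaP and 47.8% of VCaP peaks were overlapped. At 3 RPM or more, which left 17 VCaP peaks, the ratios were 33.8, 50.7 and 24.6, against 17.5 elsewhere, the chromosome 16 shares 4.61% and 2.44%, the 16q share of VCaP peaks 64.7%, and the overlapped shares 0.870% of LNCaP and 29.4% of VCaP peaks. At a fold of at least 10, which left 6 VCaP peaks, the ratio was 8.83 on chromosome 16, 4.8 on 16p and 29.0 on 16q, against 5.58 elsewhere, so that 16p lay below the other chromosomes. Chromosome 16 then held 3.01% of LNCaP peaks, with 54.7% in LNCaP and 16.7% in VCaP on 16q, and VCaP overlapped 9.43% of those in LNCaP. At a fold of at least 5 the 16p ratio was 3.26 and the chromosome 16 share of VCaP peaks 2.28%. When each peak had to cover 50% of the other, 9.42% of LNCaP and 42.4% of VCaP peaks were shared, and with summits within 200 bp 71.7% of VCaP peaks. At a −log10 q of at least 5, 8 bins had 5 or more VCaP peaks and 7 lay above the median of other bins. The median pileup was then 4.90 RPM in LNCaP and 1.61 in VCaP on each arm. The median fold was 6.48 in LNCaP and 6.76 in VCaP on 16p, and 6.89 in LNCaP and 6.25 in VCaP on 16q. The median length was 506 bp in LNCaP and 341 bp in VCaP on 16p, and 511 bp in LNCaP and 364 bp in VCaP on 16q. Of shared LNCaP peaks, the medians were 6.54 RPM, a fold of 7.29 and 603 bp on 16p, and 5.72, 7.66 and 564.5 bp on 16q. Without 85 to 90 Mb, a setting chosen after seeing the data, chromosome 16 held 3.46% of LNCaP peaks and 16q 43.6% of those. The causes of these shifts beyond the peaks left out were not tested. No paired analysis was possible because each line has 1 library. A VCaP peak of chromosome 16 had at least 7 tags and an LNCaP peak at least 4, or 0.805 and 1.09 RPM, and the VCaP library was the deeper. A site missing from a list was not called there, which is not absence of binding. The part of depth in the missing sites was not tested.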
